A study of Homo sapiens with 9 samples.

Results

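The metallothionein genes of human chromosome 16 were described in MCF-10A cells, a non-tumorigenic human breast epithelial line, by RNA sequencing of 3 genotypes with 3 libraries each. The genes were MT2A, MT1E, MT1X, MT1F, MT1L, MT1M, MT1A and MT1G, 8 of the 60609 genes in the deposited count tables, and they were found by matching the tables' gene identifiers, without version, to GENCODE symbols. They were selected on their CPM over the 3 genotypes, in particular the loss of MT1L RNA in both knock-in lines, so their levels and differences between genotypes are given as a description, without a p-value. The H1047R and E545K cells are knock-in lines carrying that change in PIK3CA, which encodes p110-alpha, a catalytic subunit of PI 3-kinase, and WT is the parental line from which they were made. The study set out to compare transcription in isogenic cells that carry either change.

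Per the labels' protocols, the H1047R and E545K lines were maintained without epidermal growth factor (EGF, 0 ng/ml) and the WT line with 20 ng/ml EGF. All 3 lines were maintained with 5% horse serum, and with insulin at 10 µg/ml, cholera toxin at 100 ng/ml and the glucocorticoid hydrocortisone at 0.5 µg/ml. All spent the last 24 h in an assay medium with 0.2 ng/ml EGF, 1% charcoal-stripped serum and the same insulin, hydrocortisone and cholera toxin. Maintenance with or without EGF therefore moved with genotype in both comparisons with WT and cannot be told apart from it. The E545K and WT counts were deposited in one table and the H1047R counts in another, and the effect of the table cannot be told apart from that of the H1047R genotype. The labels do not say that the replicates came from separate cultures, and each knock-in genotype is treated here as 1 line. Each p-value therefore measures library-to-library spread, which may be technical. In bulk RNA, fewer cells that express a gene and less RNA per cell cannot be told apart.

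Metallothioneins are small cysteine-rich proteins that bind zinc, copper and cadmium through their cysteine thiols and buffer the free zinc of the cell. Their genes are classically switched on by zinc through the transcription factor MTF1, which binds short metal response elements in their promoters, and by glucocorticoids and oxidative stress. MT2A is the widely expressed MT2 gene, the MT1 genes are its tandem copies with more variable expression, and MT1L is annotated as a transcribed unprocessed pseudogene. In breast tissue metallothionein protein is known from the myoepithelial layer and from part of breast carcinomas.

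The 8 genes lie on hg38 chromosome 16, the build of the count tables. In map order MT2A (ENSG00000125148.7) lies at 56608584 to 56609497, MT1L (ENSG00000260549.1) at 56617476 to 56618818 and MT1E (ENSG00000169715.15) at 56625475 to 56627112, all on the plus strand. MT1L thus lies between the genes with the highest counts of the family, 7978 bases from the end of MT2A and 6656 bases from the start of MT1E. MT1M (ENSG00000205364.4, 56632659 to 56633981), MT1A (ENSG00000205362.11, 56638666 to 56640087) and MT1F (ENSG00000198417.7, 56657731 to 56660698) follow on the plus strand. MT1G (ENSG00000125144.13, 56666731 to 56668065) is on the minus strand, and MT1X (ENSG00000187193.9, 56682470 to 56684196, plus strand) closes the cluster. From MT4 to MT1X the cluster spans 119124 bases and holds 16 metallothionein genes and pseudogenes.

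The coding sequences below, read from the hg38 genome with the GENCODE 44 annotation, show how alike the copies are and what marks MT1L. Each is spliced from 3 exons and runs 5′ to 3′ on the gene's own strand, and capitals mark in-frame cysteine codons (TGC or TGT). For MT1L, a pseudogene, the exons of its annotated transcript were taken in place of a coding sequence. For the other genes the annotated coding sequence with the most cysteine codons was taken, with the canonical transcript first among ties.
MT2A: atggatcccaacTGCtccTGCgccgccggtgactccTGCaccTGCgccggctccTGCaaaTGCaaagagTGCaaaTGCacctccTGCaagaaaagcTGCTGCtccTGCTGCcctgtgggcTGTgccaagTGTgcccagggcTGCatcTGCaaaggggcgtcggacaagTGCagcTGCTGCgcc
MT1E: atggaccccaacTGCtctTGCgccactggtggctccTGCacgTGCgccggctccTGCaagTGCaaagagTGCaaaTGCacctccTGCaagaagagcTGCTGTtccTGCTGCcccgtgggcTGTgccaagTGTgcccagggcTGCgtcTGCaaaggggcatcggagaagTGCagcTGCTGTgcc
MT1X: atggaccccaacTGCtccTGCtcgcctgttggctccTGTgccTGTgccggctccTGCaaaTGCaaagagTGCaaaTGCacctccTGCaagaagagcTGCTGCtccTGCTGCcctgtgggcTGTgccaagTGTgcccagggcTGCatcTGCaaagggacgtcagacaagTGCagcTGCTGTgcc
MT1L: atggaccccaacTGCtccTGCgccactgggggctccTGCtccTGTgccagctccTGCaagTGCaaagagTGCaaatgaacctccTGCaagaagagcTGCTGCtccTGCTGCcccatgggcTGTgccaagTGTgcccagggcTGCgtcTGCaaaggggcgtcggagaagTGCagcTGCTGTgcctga
MT2A, MT1E and MT1X each have 61 codons before the stop, and 20 of them encode cysteine. The MT1L sequence has 19 cysteine codons and an in-frame stop, tga, at codon 26. Compared with MT1E it differs at 10 of 183 bases, which is 94.5% identity. Counting positions from 1 at the start codon, with the MT1E base first, these are T18C, T30G, A40T, G42C, C45T, G49A, C78A, T102C, G115A and A159G. The change C78A lies in codon 26 and makes the MT1E cysteine codon the MT1L stop. Over the 28 pairs of the 8 genes, coding identity was 88.5% to 94.5%.

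That likeness bears on the counts. Per the file headers no option to count reads with several alignments was set, so a read that aligned equally well to several copies was left out, and each value is that of the reads placed on 1 copy. Of the 50-base windows of the spliced transcript, 16.6% in MT1X, 6.12% in MT1F, 5.34% in MT1E, 4.55% in MT2A and 0% in MT1L occurred exactly in another family gene of chromosome 16. No window of 100 or 150 bases was shared by any of the 8 genes, and reads were 150 bases long before trimming. These shares are of the reference genome and were searched within the family genes of chromosome 16 only. Of the exon bases counted for MT1X, 18.6% also belong to ENSG00000259827, which starts at the same base on the same strand, and reads there were counted for both. This share of bases is not the share of reads. In H1047R, ENSG00000259827 had 13459, 21283 and 19974 counts, beside 17819, 28689 and 27511 for MT1X. In WT it had 2071, 1389 and 1371, beside 2572, 1795 and 1766. The share of MT1X reads counted for both was not tested.

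Promoters in RefSeq's GRCh38.p14 table matched 2 of the 8 genes, MT2A and MT1X, which moved in opposite directions between the knock-in lines. The 250 bases before each start are shown on the plus strand, with capitals at the metal response element core, spelled TGCACNC or TGCGCNC and searched on both strands.
MT2A promoter, chr16:56608334-56608583: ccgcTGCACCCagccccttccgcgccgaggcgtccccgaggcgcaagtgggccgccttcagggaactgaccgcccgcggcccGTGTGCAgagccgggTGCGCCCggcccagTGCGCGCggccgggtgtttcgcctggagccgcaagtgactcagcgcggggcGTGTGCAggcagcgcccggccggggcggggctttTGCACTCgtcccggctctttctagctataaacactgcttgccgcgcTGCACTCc
MT1X promoter, chr16:56682220-56682469: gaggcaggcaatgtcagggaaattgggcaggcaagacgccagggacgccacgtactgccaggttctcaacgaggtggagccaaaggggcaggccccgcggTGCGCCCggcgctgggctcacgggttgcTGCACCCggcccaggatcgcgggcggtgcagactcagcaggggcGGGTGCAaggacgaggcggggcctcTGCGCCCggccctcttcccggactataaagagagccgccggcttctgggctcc
The MT2A window held 7 matches, 5 on the plus strand and 2 on the minus strand. The MT1X window held 4, with 3 on the plus strand and 1 on the minus strand. Among all 35116 promoter windows of this length in the table, 24.8% held at least 1 match, 0.370% at least 4 and 0.0313% at least 7. Of the family genes outside the 8, the MT1H window held 8 matches and those of MT1B and MT4 held 3 each. These genes were under 0.2 CPM in every library, so the number of matches did not follow the level. The AP-1 motif TGANTCA, searched on both strands, occurred 1 time in the MT2A window, did not occur in the MT1X window, and occurred in 6.57% of all windows. MT1E, MT1F, MT1G, MT1L, MT1M and MT1A had no entry. A match is a run of letters and does not show a bound site.

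Total gene counts were 377093507 to 605972919 in the H1047R libraries, 95533991 to 134245702 in E545K and 95091894 to 136132315 in WT, with each mate of a read pair counted by itself. Levels are CPM, taken on the TMM-adjusted library size. PIK3CA, the targeted gene, stood at 41.7 to 43.9 CPM in H1047R, 37.4 to 39.1 in E545K and 43.9 to 47.9 in WT. It was lower than in WT in E545K (log2 difference -0.28, edgeR adjusted p = 0.000171) and in H1047R (-0.11, adjusted p = 0.0438). It was higher in H1047R than in E545K (0.17, adjusted p = 0.0053). A gene's count does not show its coding change. The epithelial markers KRT5, KRT14, KRT17, TP63, ITGA6, CDH1, EPCAM and LAMB3 summed to 26326 to 30092 CPM in H1047R, 23605 to 24078 in E545K and 28113 to 28685 in WT. Most of this sum was KRT5 and KRT17, and single markers differed more between genotypes. Mean LAMB3 was 388 CPM in H1047R, 1096 in E545K and 678 in WT, and mean KRT14 was 56.1, 27.8 and 47.9 CPM. Mean EPCAM was 23.6 CPM in H1047R, 19.4 in E545K and 35.8 in WT. The 3 endothelial markers summed to at most 1.08 CPM in any library and the 2 fat markers to at most 0.597. The 4 blood markers summed to 4.51 to 6.31 CPM in H1047R, 6.69 to 7.35 in E545K and 10.8 to 11.2 in WT, nearly all of it CD68. The 4 fibroblast markers summed to 58.5 to 71.6 CPM in H1047R, 58.9 to 61.8 in E545K and 47.5 to 48.4 in WT, nearly all of it COL1A1. The part of these in the metallothionein levels was not tested.

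MT2A carried most metallothionein counts in every library, and its level was lower in the H1047R libraries than in all others. The level of MT2A was 240, 157 and 151 CPM in the 3 H1047R libraries, 390, 429 and 449 CPM in E545K and 421, 405 and 409 CPM in WT. All 3 H1047R libraries lay below all others, replicate 1 was the highest of them, and the E545K and WT libraries overlapped. The means were 183 ± 50.0 CPM in H1047R, 423 ± 29.8 in E545K and 412 ± 8.08 in WT (SD, n = 3 each). The log2 difference of MT2A was -1.17 ± 0.13 for H1047R against WT and 0.04 ± 0.13 for E545K against WT (± approximate SE). Between the knock-in lines, MT2A was 2.31-fold lower in H1047R than in E545K (log2 difference -1.21 ± 0.13). Without H1047R replicate 1 this difference was -1.45.

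**Figure D1:**
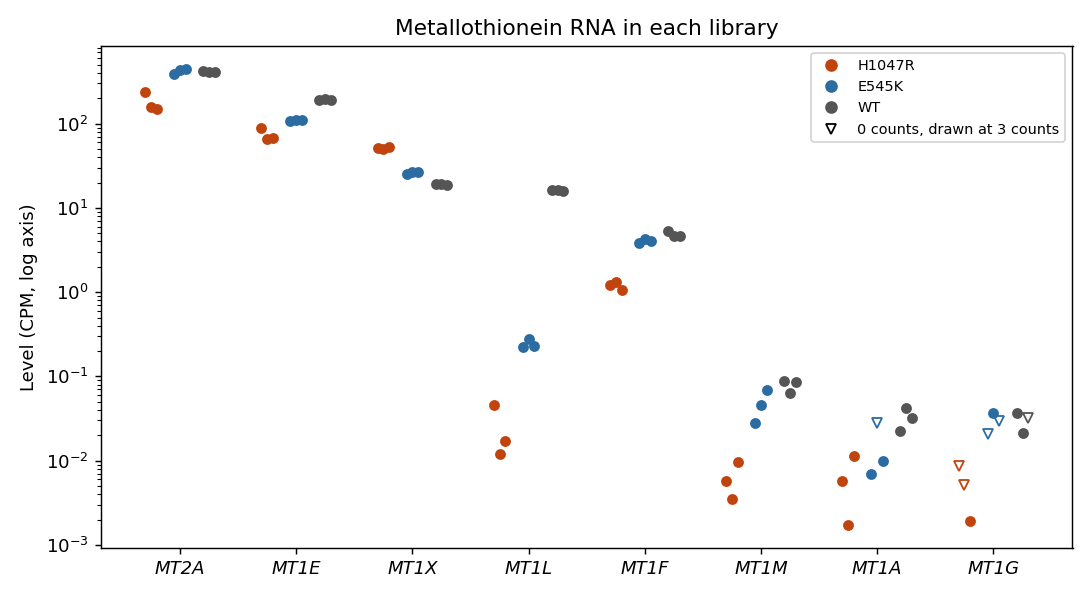
Level of the 8 metallothionein genes in each of the 9 libraries, in CPM on a log axis, with H1047R, E545K and WT from left to right within each gene. Filled points are single libraries and open triangles are libraries with 0 counts, drawn at the level of 3 counts. MT2A, MT1E, MT1L and MT1F were lowest in H1047R, MT1X was highest there, and MT1L was near 16 CPM in WT only.

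MT1E, the most abundant MT1 copy, stepped down over both knock-in lines. Its level was 87.97, 66.7 and 67.4 CPM in H1047R, 109, 110 and 111 CPM in E545K and 189, 198 and 193 CPM in WT. No library of one genotype overlapped with those of another, and H1047R replicate 1 was again the highest of its group. The log2 difference of MT1E was -1.39 ± 0.08 for H1047R against WT and -0.82 ± 0.08 for E545K against WT. MT1E was 1.48-fold lower in H1047R than in E545K (log2 difference -0.57 ± 0.08).

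MT1X ran the other way. Its level was 51.3, 49.7 and 52.8 CPM in H1047R, 25.4, 26.5 and 26.8 CPM in E545K and 19.1, 19.0 and 18.7 CPM in WT. The groups did not overlap, and the spread within each genotype was small (SD 1.57 CPM in H1047R, 0.739 in E545K and 0.194 in WT, n = 3 each). The log2 difference of MT1X was 1.44 ± 0.04 for H1047R against WT and 0.47 ± 0.04 for E545K against WT. MT1X was 1.96-fold higher in H1047R than in E545K (log2 difference 0.97 ± 0.04). ENSG00000259827, which shares exon bases with MT1X, stood at 36.9 to 38.7 CPM in H1047R, 19.4 to 20.6 in E545K and 14.5 to 15.4 in WT. Reads on the shared bases were counted for both genes, so the same order over genotypes there is not a second measurement of MT1X. How many of the reads belong to either gene was not tested.

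MT1F was a minor copy and was low in H1047R. Its level was 1.22, 1.33 and 1.07 CPM in H1047R, 3.80, 4.25 and 4.11 CPM in E545K and 5.30, 4.64 and 4.58 CPM in WT. The groups did not overlap, although the highest E545K library and the lowest WT library lay close together. The log2 difference of MT1F was -2.01 ± 0.11 for H1047R against WT and -0.26 ± 0.11 for E545K against WT. MT1F was 3.35-fold lower in H1047R than in E545K (log2 difference -1.74 ± 0.11).

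The pseudogene MT1L was the member with the widest range. It had 16, 7 and 9 counts in the H1047R libraries and 32, 30 and 23 in E545K, against 2227, 1538 and 1482 in WT. As levels these were 0.0460, 0.0121 and 0.0173 CPM in H1047R, 0.224, 0.278 and 0.229 CPM in E545K and 16.5, 16.3 and 15.7 CPM in WT. All 6 knock-in libraries lay far below all WT libraries, and although the H1047R libraries were the deepest they had the fewest MT1L counts. MT1L was 708-fold lower in H1047R than in WT (log2 difference -9.47 ± 0.19) and 66.6-fold lower in E545K than in WT (-6.06 ± 0.16). In both comparisons this was the 9th lowest log2 difference among 26412 genes tested. H1047R lay below E545K as well (log2 difference -3.41 ± 0.31), on counts so few that 1 library moved it: it was -4.00 without H1047R replicate 1, and the difference for H1047R against WT was then -10.06. The loss of MT1L is what chose it as a member.

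**Figure D2:**
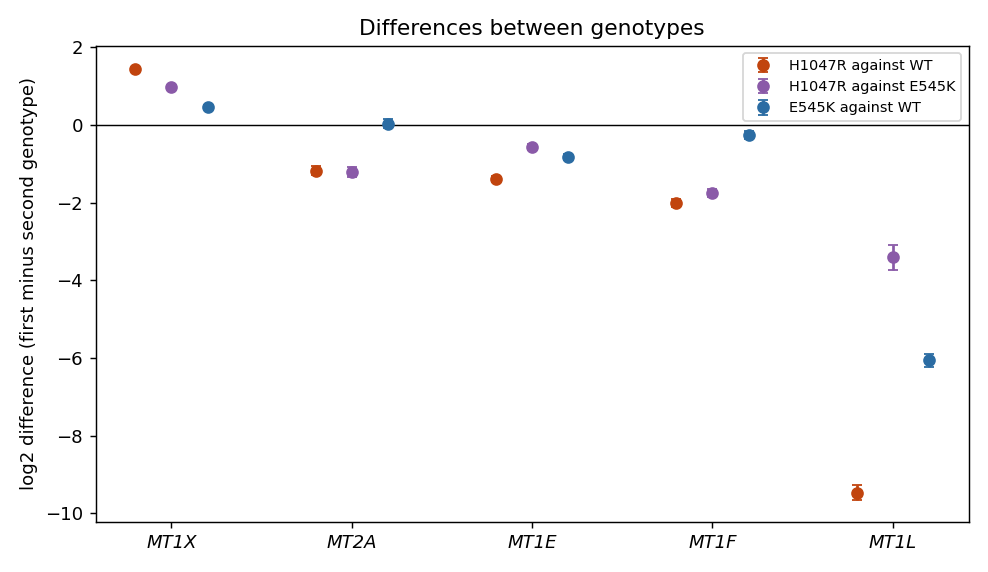
Log2 difference of the 5 metallothionein genes with enough counts, for H1047R against WT, H1047R against E545K and E545K against WT, with the first genotype minus the second on the vertical axis. Points are fitted differences and bars are ± 1 approximate SE. MT1X lay above 0 in all 3 comparisons, MT1L reached -9.47 in H1047R against WT, and MT2A lay at 0.04 in E545K against WT.

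The other 3 genes were barely detected and did not pass the count filter, so no difference is given for them. MT1M had 2, 2 and 5 counts in H1047R, 4, 5 and 7 in E545K and 12, 6 and 8 in WT. MT1A had 2, 1 and 6 counts in H1047R, 1, 0 and 1 in E545K and 3, 4 and 3 in WT. MT1G had 0, 0 and 1 counts in H1047R, 0, 4 and 0 in E545K and 5, 2 and 0 in WT. All 3 stayed under 0.1 CPM in every library. The limit of 3 counts that a count of 0 leaves corresponds to 0.00520 to 0.00863 CPM in H1047R, 0.0210 to 0.0299 CPM in E545K and 0.0223 to 0.0318 CPM in WT, and it covers counting error only. It takes counts as independent, but both mates of a read pair can be counted, so the true limit is higher. A further 13 metallothionein genes and pseudogenes, among them MT3 and MT4, the brain and squamous epithelial forms, were under 0.2 CPM in every library.

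**Figure D3:**
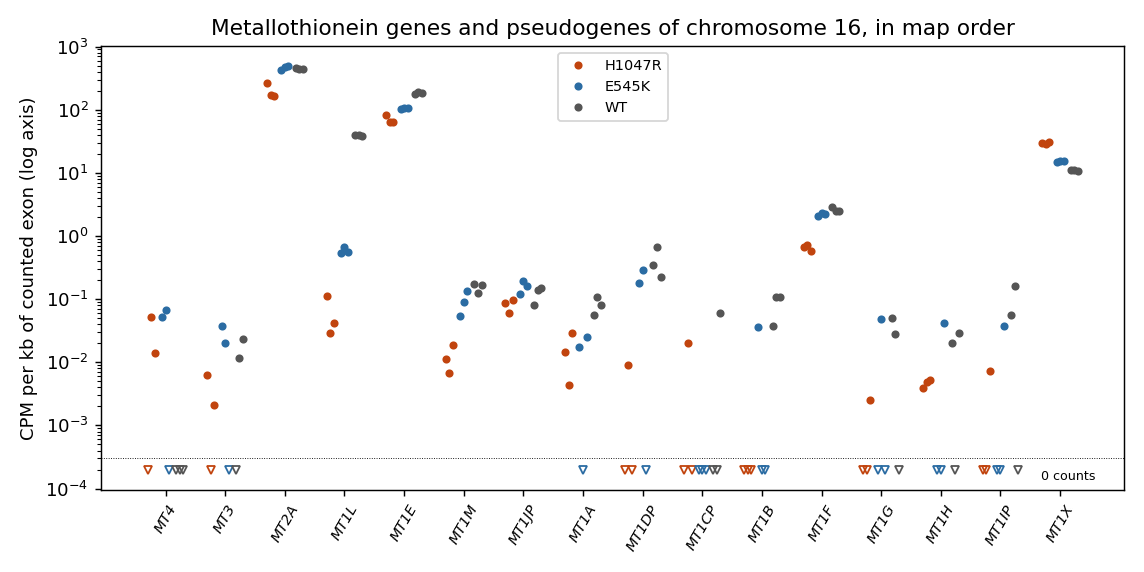
Level per kilobase of counted exon, on a log axis, of the 16 metallothionein genes and pseudogenes of chromosome 16 in map order, with H1047R, E545K and WT from left to right. Points are single libraries and open triangles below the dotted line are libraries with 0 counts. Expressed copies stand among near-silent ones along the cluster, and MT1L is at 39.3 ± 1.03 CPM per kb in WT (SD, n = 3) between MT2A and MT1E.

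By genotype, all 5 tested genes were called in H1047R against WT (edgeR, adjusted p under 0.05 over all genes), 1 higher and 4 lower, where the share called among all genes was 55.5%. In E545K against WT, 3 of the 5 were called, namely MT1X higher and MT1E and MT1L lower, beside 36.6% of all genes. Libraries of H1047R and WT did not overlap for any of the 5, as for 60.1% of all genes tested, and those of E545K and WT did not overlap for 4 of the 5, as for 54.2%. Both contrasts share the WT libraries. In H1047R against E545K, 4 of the 4 tested genes other than MT1L were called, with MT1X higher and MT2A, MT1E and MT1F lower, where 53.2% of all genes were called and 58.8% had libraries that did not overlap. The choice of the genes used these values, so nothing is read from any of these counts.

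Set per length, so that genes can be compared with each other, MT2A stood first in every genotype. Per kilobase of counted exon, the mean levels in H1047R were 199.98 ± 54.7 CPM per kb for MT2A, 70.4 ± 11.5 for MT1E, 29.7 ± 0.911 for MT1X, 0.652 ± 0.0691 for MT1F and 0.0612 ± 0.0445 for MT1L (SD, n = 3). In E545K they were 462 ± 32.6 for MT2A, 104 ± 1.04 for MT1E, 15.2 ± 0.428 for MT1X, 2.19 ± 0.124 for MT1F and 0.593 ± 0.0716 for MT1L. In WT they were 450 ± 8.84 for MT2A, 184 ± 4.26 for MT1E, 39.3 ± 1.03 for MT1L, 10.96 ± 0.112 for MT1X and 2.61 ± 0.217 for MT1F. On this scale the pseudogene stood behind MT2A and MT1E in WT and last of the 5 in both knock-in lines. The counted exons include bases that the spliced transcript chosen for the sequences above lacks, 1727 counted bases against 404 spliced bases in MT1X. The order of close neighbours therefore depends on the length used. Per kilobase of spliced transcript, MT1X reached 123 to 131 CPM per kb in H1047R and MT1E 94.7 to 125, which overlap. On that scale MT1X in WT stood at 46.9 ± 0.480 CPM per kb, above MT1L at 39.3 ± 1.03.

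The summed level of the 8 genes was 272 to 381 CPM in H1047R, 528 to 590 in E545K and 641 to 651 in WT. The groups did not overlap, and the means were 309 ± 62.1 CPM in H1047R, 563 ± 31.9 in E545K and 645 ± 5.27 in WT (SD, n = 3 each). The makeup of this sum differed as well. MT2A made up 58.6% ± 4.03 of the metallothionein counts in H1047R, 75.0% ± 1.07 in E545K and 63.8% ± 0.818 in WT. MT1E made up 24.04% ± 0.858 in H1047R, 19.5% ± 0.931 in E545K and 30.0% ± 0.870 in WT. The share of MT1X was 17.0% ± 3.12 in H1047R, 4.66% ± 0.136 in E545K and 2.93% ± 0.0138 in WT. MT1L gave 2.51% ± 0.0482 of the counts in WT and under 0.05% in every knock-in library.

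**Figure D4:**
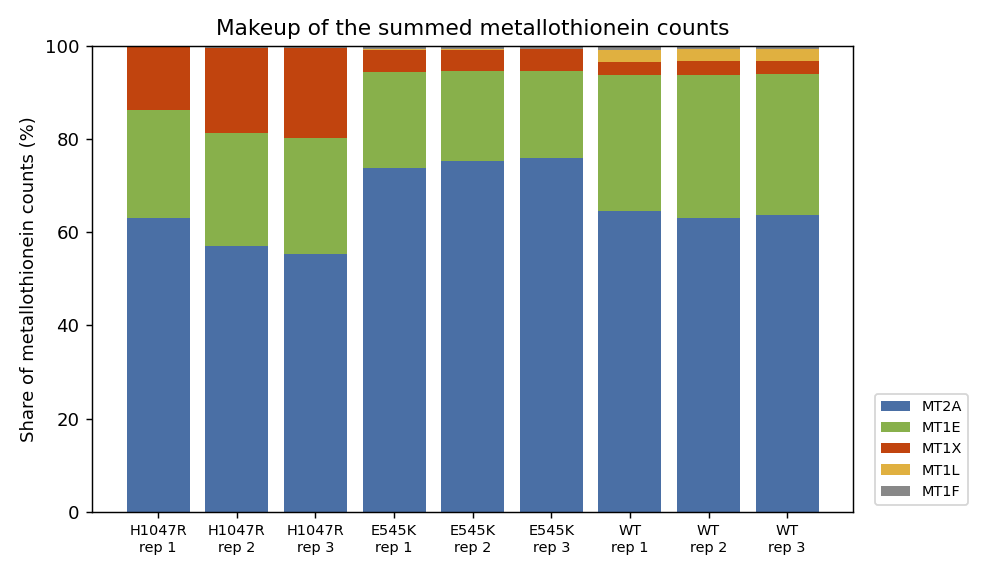
Share of each gene in the summed metallothionein counts, in percent, for each library, with H1047R at the left, then E545K and WT. MT1X takes 13.5% to 19.4% in the H1047R libraries, against 2.92% to 2.95% in WT, and the band of MT1L is visible in the WT libraries alone.

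Ratios of 2 members within a library do not depend on depth or scaling. There were 21.3 to 34.99 MT1X counts per 100 MT2A counts in H1047R, 5.97 to 6.51 in E545K and 4.54 to 4.68 in WT. For MT1E the ratio was 36.6 to 44.7 counts per 100 MT2A counts in H1047R, 24.7 to 27.8 in E545K and 45.0 to 48.9 in WT, so E545K was the genotype with the least MT1E beside its MT2A. MT1L, beside its neighbour MT1E, had 0.0182 to 0.0523 counts per 100 MT1E counts in H1047R, 0.207 to 0.252 in E545K and 8.15 to 8.74 in WT. None of these 3 ratios overlapped between genotypes.

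The genes that handle zinc give the setting of these levels. SLC30A1, the zinc exporter of the plasma membrane and a classical MTF1 target, was at 171 ± 10.1 CPM in H1047R, 101 ± 1.30 in E545K and 75.2 ± 1.998 in WT (SD, n = 3). It rose in H1047R against WT (log2 difference 1.18 ± 0.05, edgeR adjusted p = 1.69e-11), in E545K against WT (0.42 ± 0.05, adjusted p = 3.61e-06) and in H1047R against E545K (0.76 ± 0.05, adjusted p = 2.74e-09). Its order over genotypes was that of MT1X and not that of MT2A. MTF1 itself was at 45.1 ± 1.15 CPM in H1047R, 34.0 ± 0.329 in E545K and 29.2 ± 0.693 in WT, and it rose in all 3 comparisons (log2 difference 0.63 ± 0.04, adjusted p = 4.65e-09 for H1047R against WT; 0.22 ± 0.04, adjusted p = 0.000596 for E545K against WT; 0.41 ± 0.04, adjusted p = 6.86e-07 for H1047R against E545K).

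**Figure D5:**
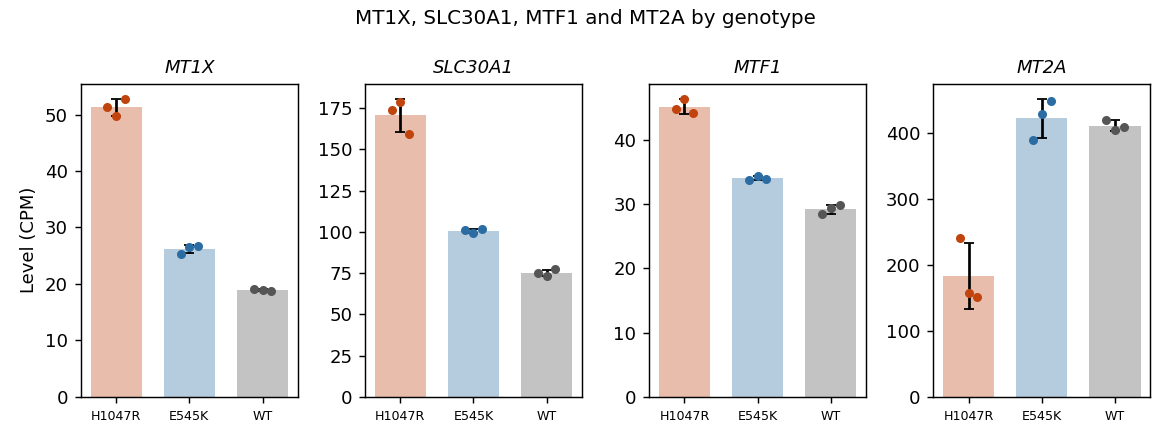
Level of MT1X, SLC30A1, MTF1 and MT2A in CPM, each panel with its own axis from 0, for H1047R, E545K and WT. Bars are means, error bars are the SD of 3 libraries and points are single libraries. The means of MT1X, SLC30A1 and MTF1 were highest in H1047R and lowest in WT, while MT2A was at 183 CPM in H1047R, 423 in E545K and 412 in WT.

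Of the zinc transporters of the SLC30 exporter and SLC39 importer families, 20 of 24 were tested. In H1047R against WT 10 rose and 5 fell, where 27.4% of all genes tested rose and 28.1% fell, with a median log2 difference of 0.09 beside 0.02 over all genes. In E545K against WT 9 rose and 2 fell, where 17.7% of all genes rose and 18.9% fell, with a median of 0.14 beside 0.00309 over all genes. The 11 calls for E545K became 7 without E545K replicate 2 or without WT replicate 2. In H1047R against E545K 8 rose and 8 fell, where 25.9% of all genes rose and 27.3% fell, with a median of 0.04 beside 0.02. SLC39A4, the zinc importer best known from the intestine, fell in both lines, to 10.2 ± 1.04 CPM in H1047R (log2 difference -0.58 ± 0.07, edgeR adjusted p = 1.02e-05) and 11.8 ± 0.782 in E545K (-0.37 ± 0.08, adjusted p = 0.00159), against 15.1 ± 0.709 in WT. SLC30A7, a zinc transporter of the Golgi, rose in both (0.43 ± 0.04 in H1047R, adjusted p = 2.46e-07, and 0.28 ± 0.04 in E545K, adjusted p = 4.81e-05). SLC39A10, an importer of the plasma membrane, was at 58.8 ± 4.81 CPM in H1047R, 69.6 ± 0.938 in E545K and 52.2 ± 1.90 in WT. It rose against WT in both lines (0.17 ± 0.05 in H1047R, adjusted p = 0.013, and 0.42 ± 0.05 in E545K, adjusted p = 2.32e-05). It was lower in H1047R than in E545K (-0.24 ± 0.05, adjusted p = 0.00136).

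MTF1 and 6 factors listed with it, MTF2, USF1, USF2, SP1, CTCF and PHF1, were all tested. In H1047R against WT 6 rose and 1 fell (median log2 difference 0.30), in E545K against WT 3 rose and 2 fell (median 0.11), and in H1047R against E545K 4 rose and 1 fell (median 0.19). Over all genes tested the shares that rose and fell were 27.4% and 28.1% for H1047R against WT, 17.7% and 18.9% for E545K against WT and 25.9% and 27.3% for H1047R against E545K, with medians of 0.02, 0.00309 and 0.02. The 5 calls for E545K against WT became 3 without E545K replicate 3 or without any 1 of the WT replicates. SP1 was at 167 ± 5.09 CPM in H1047R, 109 ± 3.46 in E545K and 123 ± 0.567 in WT, and it rose in H1047R against E545K (log2 difference 0.62 ± 0.04, edgeR adjusted p = 5.31e-09). USF2, a factor that binds E-boxes in metallothionein promoters of mice, fell in both lines (-0.41 ± 0.05 in H1047R, adjusted p = 1.66e-06, and -0.28 ± 0.05 in E545K, adjusted p = 0.000162).

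Of 14 copper handling genes tested, 3 rose and 7 fell in H1047R against WT, beside 27.4% and 28.1% of all genes, with a median log2 difference of -0.20 beside 0.02. In E545K against WT 6 rose and 2 fell, beside 17.7% and 18.9% of all genes, with a median of 0.08 beside 0.00309. The 8 calls for E545K against WT became 5 without E545K replicate 1, E545K replicate 2 or WT replicate 1. In H1047R against E545K 2 rose and 7 fell, beside 25.9% and 27.3%, with a median of -0.17 beside 0.02. ATP7A, the copper exporting ATPase, rose to 31.6 ± 1.25 CPM in H1047R (log2 difference 0.96 ± 0.05, edgeR adjusted p = 6.12e-10), against 16.3 ± 0.806 in WT. The chaperone that feeds it, ATOX1, was at 31.3 ± 3.95 CPM in H1047R, 44.1 ± 1.19 in E545K and 44.5 ± 0.666 in WT, and it fell in H1047R against WT (-0.51 ± 0.07, adjusted p = 1.28e-05) and against E545K (-0.49 ± 0.07, adjusted p = 2.04e-05). SLC31A1, the copper importer, rose in both lines (0.39 ± 0.06 in H1047R, adjusted p = 4.42e-05, and 0.45 ± 0.06 in E545K, adjusted p = 2.83e-05).

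All lines had hydrocortisone, a ligand of the glucocorticoid receptor NR3C1. NR3C1 was at 186 ± 6.38 CPM in H1047R, 170 ± 0.994 in E545K and 194 ± 1.42 in WT. It fell in E545K against WT (log2 difference -0.20 ± 0.04, edgeR adjusted p = 0.000743), and the difference for H1047R against WT was -0.06 ± 0.04 (adjusted p = 0.164). HSD11B2, the enzyme that inactivates cortisol, was at 46.4 ± 3.86 CPM in H1047R and 28.3 ± 1.07 in E545K, against 4.19 ± 0.341 in WT. It rose in H1047R (3.46 ± 0.07, adjusted p = 3.31e-14) and in E545K (2.75 ± 0.07, adjusted p = 1.82e-12), and it was higher in H1047R than in E545K (0.71 ± 0.06, adjusted p = 2.19e-07).

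The list of the glucocorticoid response holds NR3C1, HSD11B2 and the cortisol-forming enzyme HSD11B1 beside response genes. Of its 20 genes tested, 13 rose and 3 fell in H1047R against WT, beside 27.4% and 28.1% of all genes, with a median log2 difference of 0.56 beside 0.02. In E545K against WT 10 rose and 9 fell, beside 17.7% and 18.9%, with a median of 0.09 beside 0.00309. In H1047R against E545K 12 rose and 7 fell, beside 25.9% and 27.3%, with a median of 0.49 beside 0.02. TSC22D3, which encodes the glucocorticoid-induced leucine zipper, was at 212 ± 7.67 CPM in H1047R and 155 ± 1.42 in E545K, against 291 ± 2.14 in WT, and it fell in both (-0.46 ± 0.04 in H1047R, adjusted p = 6.93e-08, and -0.91 ± 0.04 in E545K, adjusted p = 1.34e-10). Other response genes rose in H1047R against WT, among them FKBP5 (0.49 ± 0.04, edgeR adjusted p = 6.05e-08), KLF9 (0.94 ± 0.05, adjusted p = 1.59e-09) and PER1 (0.41 ± 0.04, adjusted p = 3.03e-07). In E545K against WT KLF9 (0.27 ± 0.06, adjusted p = 0.00141) and PER1 (0.36 ± 0.04, adjusted p = 2.84e-06) rose, and FKBP5 was not called (-0.04 ± 0.04, adjusted p = 0.473). MAOA, a monoamine oxidase, was at 162 ± 8.09 CPM in H1047R, 23.7 ± 0.760 in E545K and 46.2 ± 0.214 in WT, 6.82-fold higher in H1047R than in E545K (2.77 ± 0.05, adjusted p = 7.04e-15). DUSP1, a MAP kinase phosphatase, fell in E545K to 438 ± 7.83 CPM, against 941 ± 5.43 in WT (-1.10 ± 0.04, adjusted p = 4.55e-11). In H1047R DUSP1 was at 880 ± 45.9 CPM and was not called against WT (-0.10 ± 0.04, edgeR adjusted p = 0.0602).

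Of 18 heat-shock and oxidative stress genes tested, 7 rose and 10 fell in H1047R against WT, beside 27.4% and 28.1% of all genes, with a median log2 difference of -0.19. In E545K against WT 6 rose and 5 fell, beside 17.7% and 18.9%, with a median of 0.10. In H1047R against E545K 4 rose and 11 fell, beside 25.9% and 27.3%, with a median of -0.22. The medians of all genes in these comparisons were 0.02, 0.00309 and 0.02. HMOX1, the heme oxygenase that metals and oxidants also induce, was at 4.89 ± 0.494 CPM in H1047R, 7.33 ± 0.476 in E545K and 10.9 ± 0.318 in WT. It fell in H1047R against WT (log2 difference -1.16 ± 0.08, edgeR adjusted p = 9.72e-09) and in E545K against WT (-0.57 ± 0.08, adjusted p = 5.15e-05). NQO1, a quinone reductase, had levels of 158 ± 24.6 CPM in H1047R, 360 ± 4.65 in E545K and 335 ± 4.53 in WT. Like MT2A it was lower in H1047R than in E545K (-1.19 ± 0.08, adjusted p = 9.17e-09). GCLC, the catalytic subunit of glutathione synthesis, rose in H1047R (1.13 ± 0.06, adjusted p = 3.8e-10) and in E545K (0.57 ± 0.06, adjusted p = 1.97e-06).

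Of 7 genes tested on either side of the cluster, 2 rose and 4 fell in H1047R against WT, where 55.5% of all genes were called in either direction, with a median log2 difference of -0.17 beside 0.02. In E545K against WT 4 rose and 2 fell, where 36.6% were called, with a median of 0.13 beside 0.00309. In H1047R against E545K 1 rose and 4 fell, where 53.2% were called, with a median of -0.11 beside 0.02. NUP93, a nuclear pore gene, was at 15.3 ± 1.21 CPM in H1047R, 29.3 ± 0.781 in E545K and 24.7 ± 0.343 in WT. It fell in H1047R against WT (log2 difference -0.69 ± 0.06, edgeR adjusted p = 5.62e-08) and against E545K (-0.94 ± 0.06, adjusted p = 2.48e-09). GNAO1, which encodes a G protein alpha subunit, was at 49.2 ± 0.736 CPM in H1047R, 39.0 ± 2.02 in E545K and 55.2 ± 0.594 in WT, and fell in E545K against WT (-0.50 ± 0.04, adjusted p = 3.35e-07).

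Genes with a like profile were sought by the root-mean-square distance between log2 levels over the 9 libraries, each gene centred on its own mean. An offset of 0.01 CPM was added to each level before the log. Among 10905 genes the closest to MT2A were ENSG00000274630 (distance 0.0967), HACD3 (0.0990), COTL1 (0.105), SH3KBP1 (0.109) and MMAB (0.111). HACD3, a fatty acid elongation enzyme, was at 22.1 ± 3.07 CPM in H1047R, 52.1 ± 0.626 in E545K and 52.5 ± 0.714 in WT. Among 17025 genes the closest to MT1L were LINC01322 (0.446), DCP1B (0.518), EEF1A2 (0.886), VCAN (1.12) and LINC02434 (1.22). LINC01322, a long noncoding RNA of chromosome 3, was at 0.00115 ± 0.00200 CPM in H1047R and 0.0672 ± 0.00890 in E545K, against 5.62 ± 0.217 in WT. EEF1A2, a translation elongation factor of muscle and neurons, was at 0.0982 ± 0.0751 CPM in H1047R and 2.25 ± 0.385 in E545K, against 36.1 ± 0.427 in WT. In H1047R the means of MT1L, LINC01322 and DCP1B were 0.0251, 0.00115 and 0 CPM, near or below the offset. The distances to MT1L therefore depend on it. All these distances describe 9 libraries of 3 genotypes and carry no test.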

How the data were processed

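RNA was sequenced after ribosomal RNA depletion, with paired reads of 150 bases, per the labels' protocols. The deposited values are raw counts per gene, made by featureCounts 2.0.0 over exons of GENCODE 32 on hg38, per the file headers. The headers' settings count a read for each gene it overlaps, ignore strand, take mates singly and leave out reads with several alignments. Trimming by Trim Galore 0.4.0 with cutadapt and alignment by STAR are named in the submitters' processing notes, beside SAMtools 1.5 and FastQC. Of 60609 gene identifiers 60340 matched GENCODE 44 symbols without version. The other deposited value used is the counted exon length per gene.

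Differences were tested with edgeR 4.0.16 in R 4.3.3 on the counts, with filterByExpr defaults, TMM scaling, 1 quasi-likelihood model over 9 libraries and Benjamini-Hochberg adjustment over 26412 genes at 0.05. The fitting code was tested on simulated data. The approximate SE is the log2 difference divided by the square root of F. The biological coefficient of variation was 0.219 within H1047R, 0.0285 within E545K and 0.0328 within WT, beside 0.118 pooled. P-values involving H1047R are therefore lenient and those of E545K against WT strict. Fewer calls in E545K against WT thus do not by themselves show smaller differences. No pair of libraries differed as little as Poisson noise allows. DESeq2 1.42.0, other scalings and filters, a replicate block, the 2 groups alone and leaving out each library were alternatives.

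The members, the lists (zinc transporters, MTF1 and factors listed with it, copper handling, glucocorticoid response, heat-shock and oxidative stress, flanking genes), the markers and the naming rule were chosen with earlier results of these data known. The rule named every member, PIK3CA, MTF1, SLC30A1 and NR3C1, was limited within each list to the 3 largest rises and falls called per comparison with at least 1 CPM (those of at least 2-fold where 3 reached it), of which the text gives a part, and took the 5 genes nearest in profile to MT2A and MT1L. FKBP5, KLF9 and PER1 were named outside this rule, beside the falls of TSC22D3 and DUSP1.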

Additional observations from a re-analysis of the deposited data

Results flagged for a closer look

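For 4 metallothionein genes the change against WT differed between the 2 knock-in lines, by the fitted difference of H1047R against E545K. The genes were selected on these levels, so the values are a description without a p-value. MT2A differed by -1.21 on the log2 scale (H1047R minus E545K), with all 3 H1047R libraries below all 3 E545K libraries. MT1E differed by -0.57 and MT1F by -1.74, again with all H1047R libraries lower. MT1X differed by 0.97, with all 3 H1047R libraries above all 3 E545K libraries. Among all genes tested, 53.2% were called in this comparison and 58.8% had libraries that did not overlap, so such differences were common. The H1047R counts come from a separate table of deeper libraries, and the part of that in these differences cannot be told apart from genotype.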

How the results depend on the processing

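Each of the 15 differences of MT2A, MT1E, MT1F, MT1L and MT1X was recomputed under 17 alternatives. For H1047R against E545K, MT2A, MT1E, MT1F and MT1X kept their direction in all of them. Their ranges were -1.45 to -1.09 for MT2A, -0.71 to -0.50 for MT1E, -1.88 to -1.66 for MT1F and 0.83 to 1.02 for MT1X. MT2A in E545K against WT, not called, ranged over -0.01 to 0.13. Against WT, 3 values moved by more than the spread between replicates: with library totals in place of TMM, E545K gave -0.72 for MT1E and 0.56 for MT1X, and with upper-quartile scaling H1047R gave 1.49 for MT1X. Library totals put the median of all genes at 0.10 in E545K against WT and at -0.12 in H1047R against E545K, beside 0.00309 and 0.02 with TMM. They gave 7021 higher and 3608 lower genes in E545K against WT, beside 4666 and 4998 with TMM, and 4905 higher and 9870 lower in H1047R against E545K, beside 6841 and 7199; the cause is the scaling itself. The summed level in WT was 638 CPM with library totals, 635 with upper-quartile scaling and 641 to 651 when single libraries were left out. The counts of called list genes moved beyond a set ratio to the main count in 12 of 357 alternatives. Smaller changes were not counted as moves. For example, the zinc transporter calls in H1047R against WT ran from 13 to 17 when single libraries were left out. Same-numbered replicates did not deviate together (correlations -0.067 to 0.073), so the numbers do not pair the libraries. With the replicate block 14394 genes were called in H1047R against WT, 9441 in E545K against WT and 13731 in H1047R against E545K, beside 14652, 9664 and 14040 without it, and MT2A in H1047R against E545K was -1.23. Depth limits MT1L in the knock-in lines, MT1M, MT1A and MT1G, with at most 32 counts in those libraries.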
